A study of Mus musculus with 2 samples.

Results

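The p53 pathway and the inhibitors that hold cells in G1 were followed through a panel of 35 genes, named one by one: *Trp53*, its feedback regulators, targets that act in arrest, apoptosis, DNA repair and stress metabolism, and 4 genes of the RB arm. All 35 were among the 24532 genes of the count table, and all 35 were expressed at a log2 mean above 0 in TPM, a unit of transcript abundance corrected for gene length and depth, as were 11754 genes in all. The cells were cardiac myofibroblasts of mice labelled C57BL/6 (C57BL/6J for work on isolated myofibroblasts in the study's methods, where mice of 8 to 10 weeks had MI surgery and males were used in vivo), isolated from the infarct 3 days after myocardial infarction (MI), kept overnight on plastic and depleted of CD45+ cells. They were grown in DMEM with serum and transfected for 72 h with 12.5 nM of a control siRNA (siCtrl) or of an siRNA against *Vgll3* (si*Vgll3*), which encodes a vestigial-like cofactor of TEAD transcription factors. Each condition was 1 library, made from cells that all came from infarcted hearts, and the sources do not say how many animals were pooled or whether the cultures were separate. With 1 library a condition there is no replicate spread and no test, and every interval below is a 95% counting interval of 1 library against the other. *Vgll3* itself had 42925 reads and 202 TPM in siCtrl against 16524 reads and 84.0 TPM in si*Vgll3*, which is 0.416 of the control level.

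p53 is a transcription factor that is made and destroyed continuously. Stress kinases stabilise it, it then switches on genes for arrest, repair or cell death, and among its targets are the proteins that remove it again, so that the response is a loop. Its best known target in arrest is *Cdkn1a*, whose product p21 inhibits cyclin-dependent kinases (CDKs) and so keeps the RB protein and its relatives active, which silences E2F and cell-cycle genes. The inhibitors of the INK4 and KIP families act on the same kinases. In fibroblasts this pathway is known for setting the limit of proliferation in culture and for senescence.

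The promoters are shown first, since p53 binds DNA at pairs of a short palindromic half-site. A RefSeq window from 250 bases before to 50 bases after a transcription start was at hand for 26 of the 35 genes (GRCm38.p6). These genes had 34 windows in all, and a motif in any window of a gene was counted for it. The p53 half-site, a motif of 10 bases read on both strands, was present in 11 of these 26 genes (42.3%), namely *Aen*, *Bax*, *Ccng1*, *Cdkn1a*, *Ei24*, *Gadd45a*, *Mdm2*, *Polk*, *Ppm1d*, *Sesn1* and *Trp53*, and in 9.55% of the 27025 genes with a window. Only *Cdkn1a* of the 26 had 2 half-sites with at most 13 bases between them, an arrangement found in 20 genes in all (0.0740%). In *Cdkn1a* these began at bases −73 and −51 from the start and were 12 bases apart. The 10 bases directly after the second differ from the motif only in their first base. They were not counted or marked, since no mismatch was allowed. Which of these stretches p53 binds was not tested. The sequences below begin with the whole of 1 of the 2 *Cdkn1a* windows, the one that holds that pair. The other held no half-site. Stretches around the half-site follow, in *Trp53* itself and in the 3 genes with a half-site whose level moved past the threshold used below. The last is the *Gdf15* stretch with GGAATG, the core motif of TEAD factors, which reads CATTCC on the strand of the gene. Capitals mark the motif and each sequence runs 5′ to 3′ along its gene.
*Cdkn1a*, chr17:29090729-29091028, plus strand: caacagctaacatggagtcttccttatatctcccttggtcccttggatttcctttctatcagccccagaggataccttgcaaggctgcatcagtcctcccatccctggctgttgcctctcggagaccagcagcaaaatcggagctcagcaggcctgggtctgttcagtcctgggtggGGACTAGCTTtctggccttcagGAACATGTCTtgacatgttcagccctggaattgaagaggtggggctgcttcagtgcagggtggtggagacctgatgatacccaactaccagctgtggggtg
*Trp53*, chr11:69580264-69580313, plus strand: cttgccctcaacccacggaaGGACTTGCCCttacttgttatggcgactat
*Mdm2*, chr10:117710915-117710964, minus strand: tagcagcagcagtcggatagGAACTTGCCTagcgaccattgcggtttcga
*Ccng1*, chr11:40755442-40755491, minus strand: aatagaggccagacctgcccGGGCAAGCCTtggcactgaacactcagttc
*Sesn1*, chr10:41887246-41887295, plus strand: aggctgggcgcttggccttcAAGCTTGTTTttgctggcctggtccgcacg
*Gdf15*, chr8:70632207-70632252, minus strand: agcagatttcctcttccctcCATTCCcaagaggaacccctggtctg

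Counted from the transcription start, the half-site began at base −75 in *Trp53*, −186 in *Mdm2*, −185 in *Ccng1* and −173 in *Sesn1*. *Sesn1* had 2 windows, and its half-site is in that of the start at 41887439. The window of its start at 41810574 held no half-site. GGAATG was found in 3 of the 26 genes (11.5%), *Gdf15*, *Eda2r* and *Phlda3*, against 16.6% of all genes with a window. Of the other motifs searched on both strands, TGTTTAC of forkhead factors was in *Bbc3*, *Eda2r*, *Mdm2* and *Sesn1* (15.4% against 4.05%), CACGTG of E-box factors in 7 of the 26 (26.9% against 8.09%), TGANTCA of AP-1 in *Fas* alone (3.85% against 8.97%) and TGATGNAA of ATF4 in *Polk* alone (3.85% against 4.51%). In the windows of the panel, 0 pairs of different motifs overlapped. A match says only that the letters are there.

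Across the panel, 7 genes moved past the threshold of the study's MA plot and 28 did not. M is the log2 ratio of TPM, si*Vgll3* over siCtrl, A is the log2 of the mean TPM of both libraries, and a gene is called higher or lower here when M is past 0.5 or −0.5 with A above 0. From here on, shares, medians and percentiles of all genes are those of the 11754 genes with A above 0. *Ccng1*, *Plk2*, *Mdm2*, *Gdf15* and *Perp* were higher in si*Vgll3*, 5 of 35 (14.3%) where 5.73% of all genes were, *Perp* having passed the limit on A only through its level in si*Vgll3*. *Trp53inp1* and *Sesn1* were lower, 2 of 35 (5.71%) where 11.4% of all genes were. The same 5 and 2 genes had their whole counting interval past the threshold, against 3.76% and 8.31% of all genes. That interval was set on the TPM ratio only. For *Sesn1*, M from read counts scaled for depth alone was −0.53. Its interval of −0.74 to −0.54, moved onto that ratio, would cross −0.5. M was above 0 in 21 of the 35 genes (60%) and in 43% of all genes. The median M of the panel was 0.12 and that of all genes −0.05, and 23 of the 35 genes lay above the latter. These are descriptions of 2 libraries, and the panel's genes share regulators, so they are not independent of each other.

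**Figure D1:**
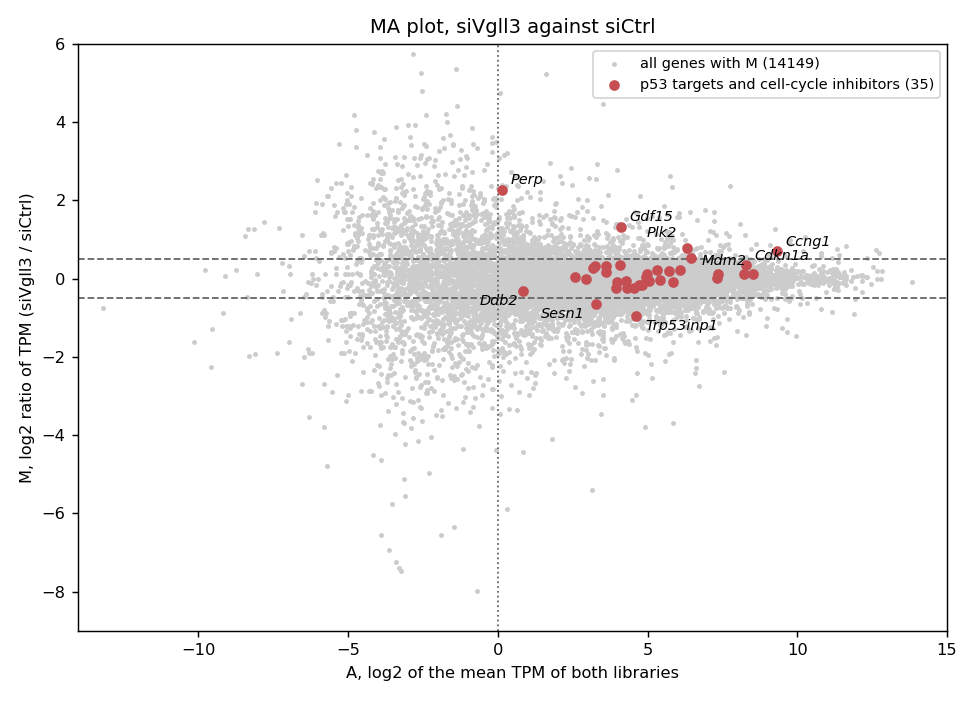
Each point is a gene, with A (log2 of the mean TPM of both libraries) across and M (log2 ratio of TPM, si*Vgll3* over siCtrl) upwards. Grey points are the 14149 genes with an M, red points the 35 genes of the panel, dashed lines M of 0.5 and −0.5 and the dotted line A of 0. Of the 35 red points, 5 lie above the upper line and 2 below the lower, and *Perp* lies near the dotted line, where grey points scatter widely.

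The panel summed to 2460 TPM in the control library and to 2998 TPM in the knockdown library, or 376231 and 437607 reads, and most of it came from few genes. *Ccng1* alone made up 19.7% of the panel's TPM in siCtrl and 26.3% in si*Vgll3*. The 5 most abundant genes held 62.9% and 66.5%. Without *Ccng1* the sum was 1976 against 2210 TPM and the median M 0.09. In siCtrl 6 genes were above 100 TPM, namely *Ccng1*, *Bax*, *Phlda3*, *Cdkn1a*, *Ei24* and *Trp53*, and 7 were under 10 TPM, so levels within the panel spread over 3 orders of magnitude.

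**Figure D2:**
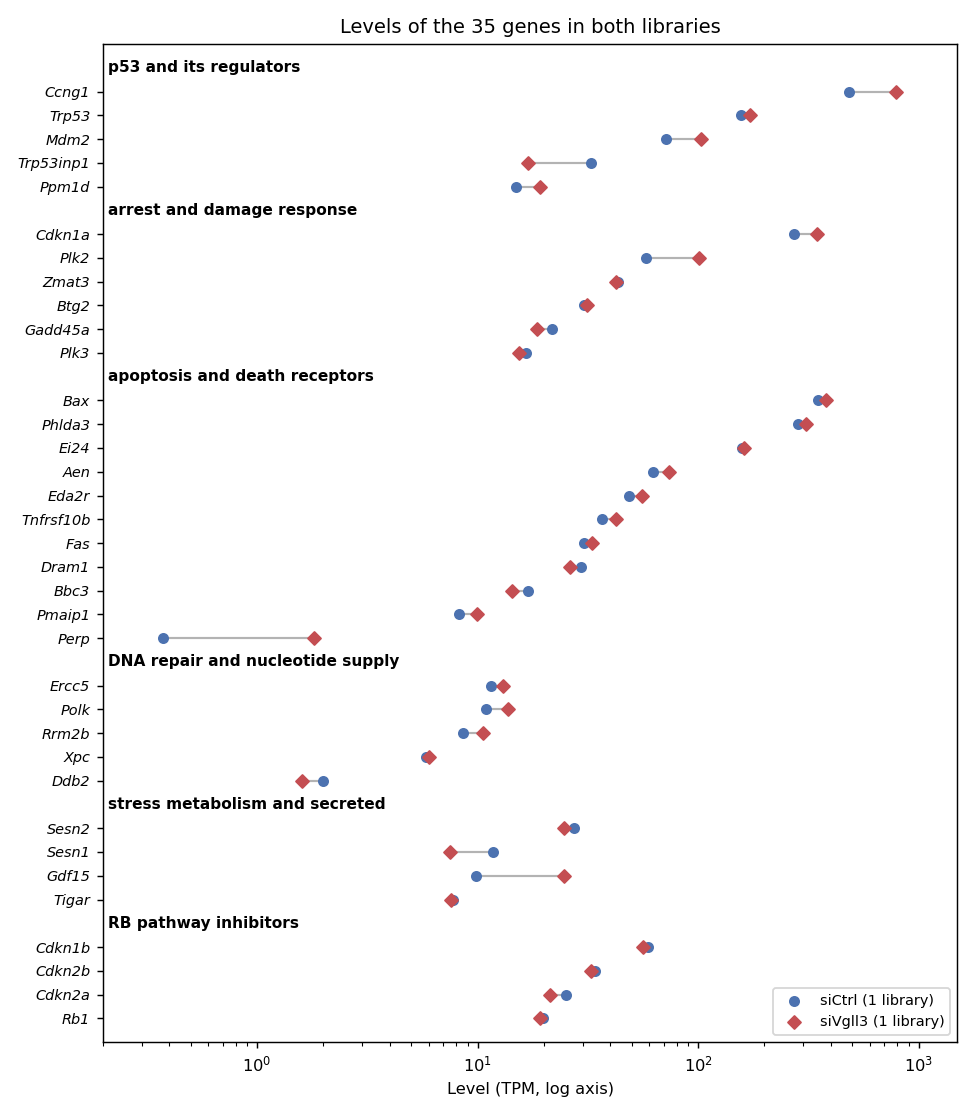
Each line is 1 of the 35 genes, grouped by role and ordered by level in siCtrl. The log axis gives the TPM level, blue circles are the siCtrl library and red diamonds the si*Vgll3* library, with no error bars since each condition is 1 library. *Ccng1* is the highest gene in both libraries (484 and 788 TPM) and *Perp* the lowest in siCtrl (0.37 TPM).

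Of p53 and its regulators, the gene for p53 was close to its control level, the ubiquitin ligase and the cyclin of the feedback loop were higher, and *Trp53inp1* was lower. *Trp53* (chr11:69580348-69591873, plus strand) had 17884 reads (157 TPM) in siCtrl against 18084 reads (171 TPM) after knockdown, and an M of 0.13 with an interval of 0.10 to 0.16. The mouse annotation also holds a processed pseudogene, *Trp53-ps*, and how reads that fit both were assigned is not stated. *Mdm2* (chr10:117688875-117710758, minus strand) encodes the ligase that marks p53 for degradation and is itself a target. It had 14047 and 18819 reads, 71.2 and 103 TPM, an M of 0.54 (0.51 to 0.57) and a ratio of 1.45, the nearest of the 5 to the threshold. *Ppm1d*, the phosphatase Wip1, which reverses the phosphorylation of p53 and of its kinases, stayed under the threshold at 15.0 and 19.2 TPM (M 0.36, 0.29 to 0.43). It was the highest M among the 28 genes between the thresholds.

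*Ccng1* (chr11:40748552-40755309, minus strand) encodes cyclin G1, which brings a phosphatase to Mdm2. Its counts were 107776 in siCtrl and 162400 in si*Vgll3*, its levels 484 and 788 TPM, its M 0.70 (0.69 to 0.71) and its ratio 1.63. It was both the most abundant gene of the panel and the one with the largest number of added reads. The opposite holds for *Trp53inp1* (chr4:11156441-11174379, plus strand), a stress-induced nuclear protein that promotes p53 activity and autophagy. It fell from 11235 to 5408 reads and from 32.5 to 16.9 TPM, with an M of −0.94 (−0.99 to −0.89) and a ratio of 0.521, the lowest M of the panel and at the 3.66th percentile of all genes. So 4 of these 5 genes had an M above 0, where 43% of all genes did, and the median of the 5 was 0.36. The other gene, a target of the same factor, was at 0.521 of its control level.

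Among the 6 genes of arrest and the damage response, 1 was past the threshold, on the higher side, where 5.73% of all genes were higher and 11.4% lower. A count of 1 in 6 is too small to set against those shares. *Plk2* (chr13:110395044-110400844, plus strand), a polo-like kinase induced by stress, had 10429 reads (58.3 TPM) in siCtrl against 16631 reads (100 TPM) after knockdown. Its M was 0.79 (0.75 to 0.82) and its ratio 1.72. Its relative *Plk3* stood at 16.5 and 15.4 TPM, an M of −0.10 (−0.18 to −0.01), so the 2 kinases did not move together. *Cdkn1a* (chr17:29090979-29100722, plus strand), the gene with the paired half-sites, had 33301 and 39285 reads and 272 and 347 TPM. Its M of 0.35 (0.33 to 0.37), a ratio of 1.27, was above 0 beyond counting error and under the threshold, at the 90.3rd percentile of all genes.

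The other genes of this role were nearer to their control level. *Gadd45a*, a stress sensor that binds PCNA, had 21.7 and 18.5 TPM, an M of −0.23 (−0.33 to −0.13). *Btg2*, an antiproliferative partner of the deadenylase complex, had 30.5 and 31.4 TPM (M 0.04, −0.01 to 0.09). *Zmat3*, a zinc finger protein that binds RNA, had 43.2 and 42.3 TPM, and its M of −0.03 took the other sign when the counts were scaled otherwise. The median M of the 6 was 0.005.

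Of the 11 genes of apoptosis and the death receptors, 9 (81.8%) were within 0.25 of M 0, where 59.9% of all genes were. Their median was 0.12. *Bax*, which permeabilises mitochondria, was the second most abundant gene of the panel in siCtrl, at 349 against 379 TPM (M 0.12, 0.09 to 0.15). The BH3-only genes that act above it had M of opposite sign. *Bbc3*, which encodes PUMA, had 16.9 and 14.3 TPM, an M of −0.25 (−0.34 to −0.15), and *Pmaip1*, which encodes NOXA, had 8.20 and 9.96 TPM, an M of 0.28 (0.18 to 0.39). Neither was past the threshold. Of the receptors of the TNF family, *Fas* had 30.5 and 33.1 TPM (M 0.12, 0.04 to 0.20), *Tnfrsf10b*, the receptor for TRAIL, 36.6 and 42.4 TPM (M 0.21, 0.17 to 0.26) and *Eda2r*, which binds ectodysplasin A2, 48.5 and 55.6 TPM (M 0.20, 0.16 to 0.24). All 3 had intervals above 0 and stayed well under the threshold.

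*Perp* (chr10:18845071-18857073, plus strand), a tetraspan membrane protein of desmosomes, had the highest M of the panel on the fewest reads. It had 46 reads (0.37 TPM) in siCtrl against 205 reads (1.82 TPM) after knockdown, an M of 2.28 with the wide interval of 1.81 to 2.77 and a ratio of 4.85. Its A of 0.13 was at the 0.859th percentile of the genes tested, so it was barely expressed in either library, and it passed A of 0 only through the si*Vgll3* library, where it is high. The remaining genes of this role were between the thresholds. *Phlda3*, which competes with Akt for membrane lipids, had 284 and 308 TPM (M 0.12, 0.09 to 0.14). *Ei24*, an ER membrane protein of autophagy, had 159 and 162 TPM (M 0.03, 0.00 to 0.06). *Aen*, a nuclease of apoptotic cells, had 62.7 and 73.6 TPM (M 0.23, 0.19 to 0.27), and *Dram1*, a lysosomal protein of autophagy, had 29.5 and 26.4 TPM (M −0.16, −0.22 to −0.10).

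**Figure D3:**
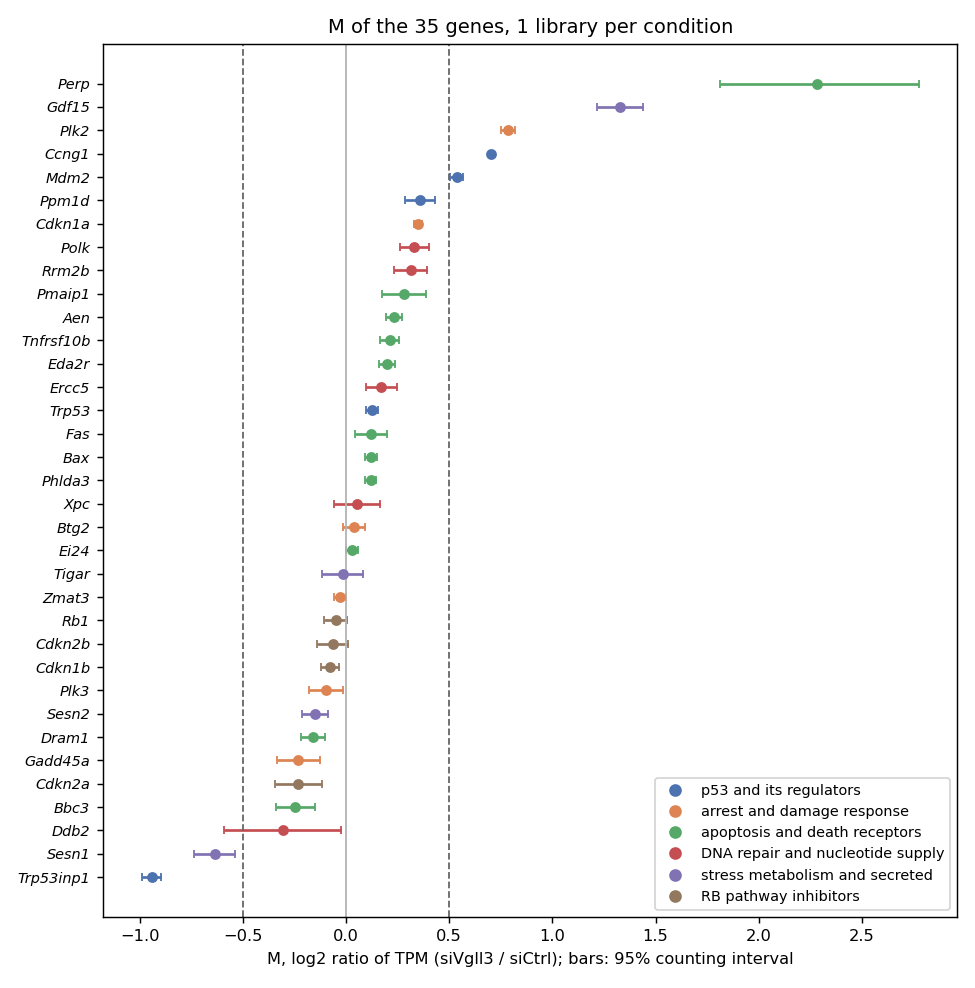
Points are M (log2 ratio of TPM, si*Vgll3* over siCtrl) of the 35 genes in order, coloured by role, and bars are 95% counting intervals of the 2 libraries. Dashed lines stand at 0.5 and −0.5. *Trp53inp1* and *Sesn1* lie below the lower line, *Mdm2*, *Ccng1*, *Plk2*, *Gdf15* and *Perp* above the upper one, and *Perp* has by far the widest bar.

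None of the 5 genes for DNA repair and nucleotide supply was past the threshold, and their median M was 0.17. Most of all genes were not past it either, with 5.73% higher and 11.4% lower. *Rrm2b*, a ribonucleotide reductase subunit that supplies nucleotides for repair, had 8.54 and 10.6 TPM (M 0.31, 0.23 to 0.39). *Polk*, a polymerase that copies past lesions, had 10.9 and 13.8 TPM (M 0.33, 0.26 to 0.40), and *Ercc5*, the endonuclease XPG, 11.53 and 12.99 TPM (M 0.17, 0.10 to 0.24). The genes that recognise lesions in nucleotide excision repair were lower in level and not above 0 beyond counting error. *Xpc* had 5.81 and 6.02 TPM, an M of 0.05 (−0.06 to 0.16). *Ddb2* had 243 and 182 reads and 1.99 and 1.61 TPM, an M of −0.31 (−0.59 to −0.02), so at this depth its interval reaches past −0.5 and comes near to 0.

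The 4 genes of stress metabolism and secretion had M from −0.64 to 1.33, a wider split than in any role but that of *Perp*. Both ends were genes of modest level, *Sesn1* and *Gdf15*, with A at the 31.9th and 46.0th percentile of the genes tested. *Gdf15* (chr8:70629393-70632470, minus strand), a secreted cytokine of the TGF-β superfamily that cells release under stress, had 949 reads (9.83 TPM) in siCtrl against 2125 reads (24.7 TPM) after knockdown. Its M was 1.33 (1.22 to 1.44) and its ratio 2.51, at the 99.0th percentile of all genes. The sestrins, which restrain mTORC1 when amino acids are short, both had M below 0, and 1 of them was past the threshold. *Sesn1* (chr10:41810574-41908436, plus strand) fell from 2129 to 1317 reads and from 11.7 to 7.52 TPM, an M of −0.64 (−0.74 to −0.54) and a ratio of 0.643. From CPM, read counts scaled for depth alone, its M was −0.53, nearer to the threshold. *Sesn2* had 27.4 and 24.7 TPM, an M of −0.15 (−0.21 to −0.09) that did not pass it. *Tigar*, a phosphatase that turns down glycolysis, had 7.70 and 7.61 TPM, and the sign of its M, −0.02, changed with the scaling.

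The 4 genes of the RB arm lay closest together, with M from −0.23 to −0.05. *Cdkn2a*, whose single gene row holds the transcripts of both p16Ink4a and p19Arf, had 1461 and 1163 reads and 25.1 and 21.4 TPM, an M of −0.23 (−0.34 to −0.12). The products cannot be told apart in a gene-level count. Its neighbour on chromosome 4, *Cdkn2b*, which encodes p15Ink4b, had 34.0 and 32.5 TPM (M −0.06, −0.14 to 0.01). *Cdkn1b*, which encodes p27Kip1, had 59.2 and 56.1 TPM (M −0.08, −0.12 to −0.03). *Rb1*, which encodes the RB protein they protect, had 19.9 and 19.2 TPM (M −0.05, −0.10 to 0.00, with the sign changed from CPM). No INK4 or KIP inhibitor of the panel was therefore past the threshold in either direction, and neither were most of all genes.

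Half-sites and M were set side by side for the 26 genes with a window. The 11 genes with a half-site had a median M of 0.23, from −0.64 in *Sesn1* to 0.70 in *Ccng1*. The 15 without had a median of −0.02, from −0.25 in *Bbc3* to 1.33 in *Gdf15*. The ranges overlap over most of their length, with *Sesn1* alone below the genes without a half-site and *Plk2* and *Gdf15* above those with one. *Gdf15* and *Plk2* had no half-site in their window. *Perp* and *Trp53inp1* had no window.

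Beyond the panel, the proteins that act on p53 included one large difference. Of 20 regulators and relatives of p53 listed, 18 were at A above 0, all but the relatives *Trp63* and *Trp73*. Of the 18, 3 were higher and 0 lower, with a median M of −0.03, where 5.73% of all genes were higher and 11.4% lower. *Mdm4*, the relative of *Mdm2* that blocks p53 as a transcription factor, had 1388 reads (3.01 TPM) in siCtrl against 3817 reads (8.98 TPM) after knockdown (M 1.58, 1.49 to 1.67). *Rchy1*, another p53 ligase, had 30.2 and 51.2 TPM (M 0.76), and *Atr*, a kinase of replication stress, 4.85 and 6.96 TPM (M 0.52, but 0.45 with 1 TPM added, which ends its call). *Usp7* and *Usp10*, enzymes that remove ubiquitin from p53 or Mdm2, had M of −0.13 and 0.07.

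Further p53 targets held no gene past 0.5 at A above 0. Of 26 listed, 22 were at A above 0, with 0 higher, 3 lower and a median M of −0.11, and 3 of 22 is near the 11.4% of all genes that were lower. Without the limit on A, 3 weakly expressed targets, *Rprm*, *Cyfip2* and *Gls2*, were also past 0.5. *Fdxr*, a mitochondrial reductase, fell from 26.4 to 10.1 TPM (M −1.39). *Tap1*, a peptide transporter of antigen presentation, fell from 15.2 to 8.11 TPM (M −0.91), and *Apaf1*, the scaffold of the apoptosome, from 22.5 to 15.4 TPM (M −0.54, but −0.495 from CPM, which is short of the threshold). The most abundant were near their control level, with M of 0.20 for *Ak1*, *Gpx1* and *Ckap2*. At A above 0 the genes higher in si*Vgll3* thus all came from the panel, with 5 higher and 2 lower there against 0 and 3 here.

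**Figure D4:**
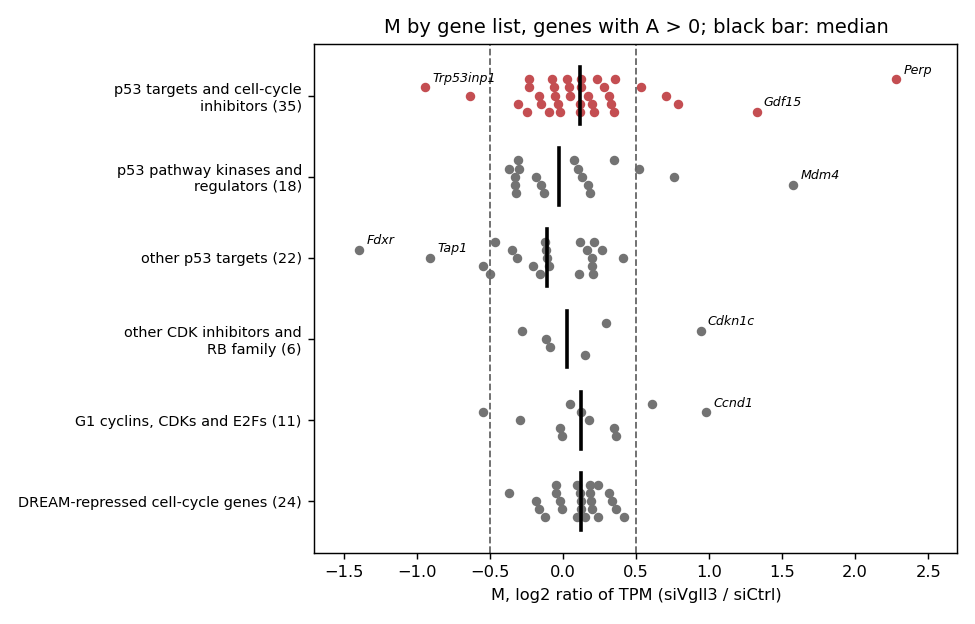
Points are M (log2 ratio of TPM, si*Vgll3* over siCtrl) of genes with A above 0 in the panel (red) and in 5 related lists (grey), spread vertically only for sight. Black bars are medians, from −0.11 to 0.12, dashed lines stand at 0.5 and −0.5, and genes past 0.9 in size are named. The 24 cell-cycle genes of the bottom row all lie between the lines.

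The cell cycle itself was covered by 3 lists, to be read beside the same 5.73% of all genes higher and 11.4% lower. Of 6 other CDK inhibitors and RB relatives, 1 was higher, *Cdkn1c* (p57Kip2), at 3.61 and 6.95 TPM (M 0.94). *Cdkn3*, *Cdkn2c* and *Cdkn2d* had M of 0.30, −0.28 (−0.14 from CPM) and 0.15. Of 11 G1 cyclins, CDKs and E2Fs, 2 were higher and 1 lower. *Ccnd1* (cyclin D1) went from 20963 to 38222 reads and from 86.5 to 170 TPM (M 0.98), *Ccne2* (cyclin E2) from 19.8 to 30.1 TPM (M 0.61), and *E2f2* from 1.38 to 0.94 TPM (M −0.55, but −0.27 from CPM). *Cdk4*, *Ccnd2* and *Ccnd3*, the most abundant, had M of 0.05, 0.12 and 0.35. The 24 listed cell-cycle genes that p21 silences through the DREAM complex held 0 past either threshold, with a median M of 0.12. Their range ran from −0.37 for *Mki67* to 0.42 for *Aurka*, and *Birc5*, *Cdk1* and *Cdc20* had M of 0.15, 0.36 and 0.10. Cyclins D1 and E2 were thus past the threshold while the 24 listed genes stayed within it. That list does not cover the genes of DNA replication as a set.

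Several of the genes named share exon bases with another annotated gene, in the panel *Cdkn1a*, *Gadd45a*, *Plk3*, *Bax*, *Ei24*, *Rrm2b*, *Ddb2*, *Tigar* and *Rb1*, and outside it *Tagln* (62.4%), *Trp53cor1* (44.1%), *Cdkn1c* (30.7%), *Ccnd1*, *Cdk4*, *Rchy1*, *Ccne2* and *Csf1r* by more than 15% of their exon bases, besides others by less. The share was largest in the panel for *Ddb2*, with 23.8% of its exon bases, and 7.68% for *Cdkn1a*. The kit marks the strand, but whether the counting used it is not stated, so reads of such pairs cannot be told apart here. None of the 7 genes past the threshold shares exon bases with another gene.

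The culture was myofibroblast by its markers, whose levels also differed between the libraries. Depth was 140815237 reads in siCtrl and 125789276 in si*Vgll3*. All 10 myofibroblast and fibroblast markers were expressed, at 16193 and 13435 TPM in sum, with *Acta2* at 3296 and 3866 TPM, *Thy1* and *Tagln* higher (M 0.72 and 0.52) and *Postn*, *Col1a1*, *Pdgfrb*, *Tcf21* and *Col1a2* lower (M −1.22, −0.90, −0.74, −0.58 and −0.53, the last only −0.48 from CPM and so short of the threshold). Of 9 leukocyte markers 5, among them *Ptprc*, the gene for CD45, had 0 reads in both libraries, and the other 4 summed to 15.0 and 8.46 TPM. Of these *Lyz2* was lower (10.9 and 3.13 TPM, M −1.80), while *Cd14* (1.53 and 2.35 TPM, M 0.62) and *Csf1r* (1.29 and 1.83 TPM, M 0.50) were higher, both no longer so with 1 TPM added. Of 7 cardiomyocyte markers 5, among them *Myh6*, had 0 reads in both. The sum of 60.05 and 10.4 TPM was *Tnnt2* alone, since *Tnni3*, with 0 and 10 reads, had no TPM value. The 6 endothelial markers summed to 26.7 and 22.3 TPM, of which *Tek* was 19.5 and 13.4 (M −0.54, and −0.49 from CPM). *Cdh5* and *Pecam1*, at 2.13 and 3.01 TPM and at 1.89 and 2.61 TPM, had M of 0.497 and 0.466 and passed 0.5 from CPM (0.55 and 0.54), and *Kdr*, under A of 0, had 81 and 146 reads. The 4 pericyte markers summed to 1.62 and 1.36 TPM, a sum without *Kcnj8*, which had 0 and 24 reads and no TPM value. The 3 epicardial markers summed to 40.8 and 20.6 TPM, with *Upk3b* lower (M −1.68), *Wt1* lower (M −0.67) and *Msln* higher (M 1.91). The part of these cells in the results above was not tested. In RNA of a whole culture, fewer cells of a type and less RNA per cell cannot be told apart.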

How the data were processed

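RNA was sequenced from 1 siCtrl and 1 si*Vgll3* library of cardiac myofibroblasts, made with a stranded mRNA kit. The authors checked reads with FastQC, removed reads shorter than 36 bp and low-quality ends with Trimmomatic, used HISAT2 to align them to mm10 and StringTie for the known genes. Tool versions, annotation release and strand setting are not given in the sources used here. The authors deposited whole-number read counts per gene, not normalised, and TPM per gene in a table for each library.

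M and A were computed from the deposited TPM with nothing added. The 95% interval is the Clopper-Pearson interval of the count ratio, conditional on the sum of both counts and shifted onto the TPM ratio (scipy 1.17.1). It covers counting error only. A trial on simulated counts held counting error alone, at equal depth and without the shift, so it says nothing of a spread between cultures. At depths of 140815237 and 125789276 reads the interval is narrow except for *Perp* and *Ddb2*. A gene was called at M past 0.5 or −0.5 with A above 0, the study's cut-offs for lower genes and their mirror. The study does not define its A, which may have been computed otherwise, so its count of lower genes need not be the same. *Perp*, with A of 0.13, is the gene of the panel nearest to that limit. Alternatives were CPM, edgeR 4.0.16 TMM factors and DESeq2 1.42.0 size factors (scaling only, since no model can be fitted to 1 library a group), 0.1 or 1 TPM added, other filters, centring and other thresholds.

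The 35 genes and the other lists were chosen with earlier results of these data known. All 35 are named. Of each other list the rule takes the 3 genes of largest mean TPM and up to 3 of highest and of lowest M past the threshold. *Mki67*, *Aurka*, *Tcf21*, *Ptprc*, *Pecam1*, *Kdr*, *Kcnj8*, *Trp63*, *Trp73* and the low targets in the closing section were named outside it after their values were seen. Gene positions and promoter windows came from RefSeq (GRCm38.p6), exon overlaps from GENCODE vM21 for the same assembly. The p53 half-site was searched by its consensus, without mismatches.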

Additional observations from a re-analysis of the deposited data

How the results depend on the processing

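With 1 library a condition, no alternative bears on the spread between cultures. No paired analysis was possible because there was 1 library for each siRNA. The same 5 genes were higher and the same 2 lower under 9 of the 11 alternatives. With A above 2, 33 of the 35 genes were tested, *Perp* and *Ddb2* dropped out, and 4 were higher. With a threshold of 1, 2 were higher (*Gdf15* and *Perp*) and 0 lower, *Perp* having passed A of 0 only through the si*Vgll3* library. The shares of 5.73% and 11.4% of all genes hold for M past 0.5 or −0.5 with A above 0. They do not apply to these 2 settings, so neither count is read as a result about the panel. Within the panel no call took the opposite direction, and M changed sign for *Rb1*, *Tigar* and *Zmat3*, with M of −0.05, −0.02 and −0.03. With 1 TPM added, M of *Perp* was 1.04. CPM raised the median M of all genes from −0.05 to 0.01 and the share of genes above 0 from 43% to 50.8%, while 24 of the 35 genes were then above 0.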

Other observations

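The relatives of p53 were near absent. *Trp73* had 0 reads in both libraries, and *Trp63* had 5 in the control against 38 after knockdown, far below A of 0. Of the listed p53 targets, 4 were under A of 0 and outside the counts above. *Rprm*, which encodes Reprimo, had 66 and 103 reads (M 0.76, counting interval 0.30 to 1.23), *Gls2*, a mitochondrial glutaminase, 95 and 137 (M 0.64, 0.25 to 1.03), *Cyfip2* 34 and 52 (M 0.73, 0.08 to 1.40), and the long noncoding RNA gene *Trp53cor1* 112 and 89 reads (M −0.22, −0.64 to 0.20).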
